A study of Mus musculus with 6 samples.

Results

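The genes that make, break down and bind retinoic acid were examined in fetal mouse testes at E12.5, the embryonic day at which the testis has formed its cords. They are the retinol and retinal enzymes Rdh10 and Dhrs3, the retinaldehyde dehydrogenases Aldh1a1, Aldh1a2 and Aldh1a3, the cellular binding proteins Crabp1 and Crabp2, and the degrading enzymes Cyp26a1, Cyp26b1 and Cyp26c1. These 10 genes were taken by symbol from the 24470 genes of the count table, all 10 were present, and 8 passed the filter on low counts. Whole testes were compared between 3 control samples (Ppp1r3c f/f, no Cre) and 3 cKO samples (Sf1-Cre Ppp1r3c f/f, conditional knockout). The mice were on a C57BL/6 background, both groups carried the floxed Ppp1r3c alleles, and 2 gonad pairs were pooled for each sample. Sf1 is another name of Nr5a1, and its regulatory sequences drive Cre in the somatic cells of the gonad, Sertoli cell progenitors among them, but not in germ cells. Ppp1r3c encodes a protein that targets protein phosphatase 1 to glycogen.

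Retinoic acid is made from vitamin A in steps: retinol is oxidised to retinal, retinal is oxidised irreversibly to retinoic acid, and enzymes of the Cyp26 family oxidise the acid to inactive products. In the fetal gonad retinoic acid promotes the entry of germ cells into meiosis, and in the fetal testis Cyp26b1, which is made by somatic cells, keeps its level low. Much of the retinoic acid near the gonad is classically placed in the adjoining mesonephros, where Aldh1a2 is active, and gonadal somatic cells also express Aldh1a enzymes.

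Ppp1r3c itself (chr19:36731731-36736604, mm10) was measured at 24.4, 22.1 and 22.9 CPM (counts relative to the TMM-scaled library total) in control replicates 1, 2 and 3 and at 4.71, 5.37 and 5.96 CPM in cKO replicates 1, 2 and 3, a log2 fold change of −2.11 (edgeR FDR = 0.000126, SE 0.111). The libraries held 16139487 to 44145158 counts, control replicate 1 being the shallowest, and TMM factors lay between 0.989 and 1.01. The 10 Sertoli cell markers were all detected and summed to 2214 to 2725 CPM in controls and 2241 to 2779 CPM in cKO. They moved both ways, with a median log2 fold change of −0.08. Of the 10, 3 (Sox9, Gata4 and Inhbb) were higher in cKO at an unadjusted edgeR p under 0.05, against 5.56% of all genes, and 0 were lower. One library stood apart: cKO replicate 3 had 12534 counts of Xist, the RNA of the inactive X chromosome, against 6 to 41 in each other library. Its 8 pre-granulosa markers summed to 337 CPM against 132 to 163 CPM in the other libraries, and its 5 fetal Leydig cell markers to 162 CPM against 238 to 435 CPM. The pre-granulosa sums of cKO replicates 1 and 2, 163 and 158 CPM, were also above those of the controls, 132 to 154 CPM. Results are therefore given with and without cKO replicate 3, and the part of these cell types in any result was not tested.

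Among the 10 genes, Aldh1a1 had the highest level and Cyp26b1 the next, while Cyp26a1 and Cyp26c1 were close to absent. Levels of different genes were compared as RPKM (CPM per kilobase of exon) over all 6 samples. Aldh1a1 was at 214 ± 31.2 RPKM (SD, n = 6), Cyp26b1 at 73.3 ± 8.75 RPKM and Aldh1a2 at 56.2 ± 5.16 RPKM. The lowest Aldh1a1 sample, 163 RPKM, was above the highest Cyp26b1 sample, 87.3 RPKM. The ranges of Cyp26b1 and Aldh1a2 overlapped between samples, with Cyp26b1 from 61.8 to 87.3 RPKM and Aldh1a2 from 51.3 to 64.2 RPKM. Within each of the 6 samples Cyp26b1 was the higher, by a log2 ratio of 0.035 to 0.642. Dhrs3 followed at 12.8 ± 1.58 RPKM and stood clear of its neighbours. Crabp2 (8.33 ± 1.67 RPKM), Crabp1 (7.61 ± 2.34 RPKM) and Rdh10 (5.32 ± 0.120 RPKM) came next. The range of Crabp2 overlapped with that of Crabp1 and that of Crabp1 with that of Rdh10, while Rdh10 lay clear of Aldh1a3. Within each sample Crabp1 was above Rdh10. Aldh1a3 was lowest of the tested genes at 2.60 ± 0.382 RPKM. These levels are means over whole testes, in which fewer cells of a type and less RNA per cell cannot be told apart.

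**Figure D1:**
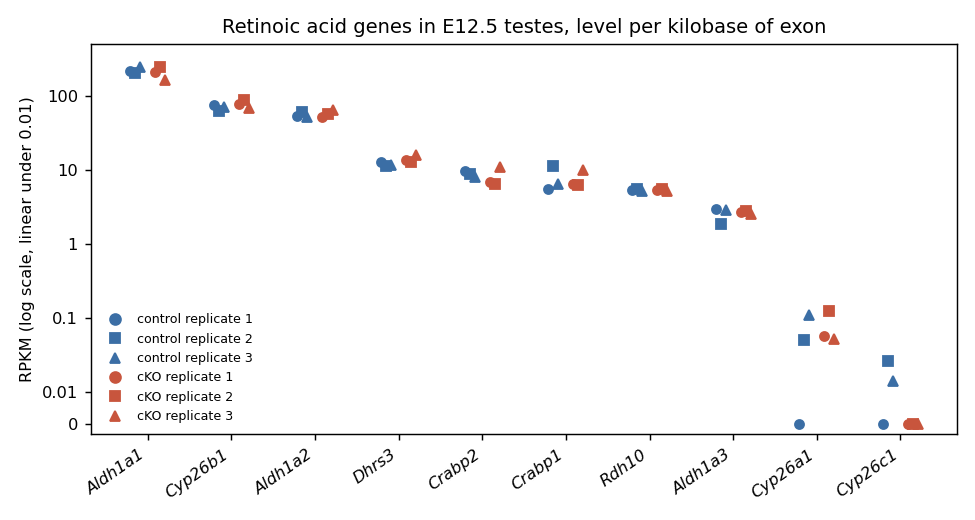
Level of each of the 10 genes in each sample, as RPKM on a log scale that is linear under 0.01, in order of the mean over 6 samples. Blue symbols are the 3 control and red symbols the 3 cKO samples. Aldh1a1 lies above all others, the ranges of Cyp26b1 and Aldh1a2 overlap, and Cyp26a1 and Cyp26c1 lie under 0.2 RPKM in every sample.

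Of the degrading enzymes, Cyp26b1 accounted for nearly the whole family. Over the 6 libraries Cyp26b1 had 65511 counts, Cyp26a1 had 27 and Cyp26c1 had 3. Cyp26a1, which clears retinoic acid in the early embryo, had 0, 4 and 8 counts in control replicates 1, 2 and 3 and 4, 8 and 3 counts in cKO replicates 1, 2 and 3. Cyp26c1, an enzyme of the embryonic head, had 0, 2 and 1 counts in controls and 0 in each cKO library. With 3 counts as the limit that a count of 0 allows, 0.0679 to 0.185 CPM per library, no difference between the groups was detectable for Cyp26c1 at this depth. Neither gene was tested. Per kilobase, Cyp26b1 made up 99.9% ± 0.0905 of the Cyp26 sum in controls and 99.9% ± 0.0400 in cKO (SD, n = 3 each).

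Cyp26c1 (chr19:37685680-37693307, mm10) and Cyp26a1 (chr19:37697808-37701536) are neighbours, 4.50 kb apart, and lie 949 kb and 961 kb from Ppp1r3c on the same chromosome. Cyp26b1 lies on another chromosome (chr6:84571414-84593908). Because both Cyp26a1 and Cyp26b1 act on the same substrate but differ this widely in level, the sequences just before their start sites are shown, taken 5′ to 3′ from the RefSeq promoter windows of build GRCm38.p6. Cyp26a1 is chr19:37697558-37697807, plus strand, and Cyp26b1 is the stretch chr6:84593909-84594060, minus strand, that precedes the gene as deposited. Capitals mark a pair of retinoic acid receptor half-sites in direct repeat, on the opposite strand, separated by 5 bases.
Cyp26a1: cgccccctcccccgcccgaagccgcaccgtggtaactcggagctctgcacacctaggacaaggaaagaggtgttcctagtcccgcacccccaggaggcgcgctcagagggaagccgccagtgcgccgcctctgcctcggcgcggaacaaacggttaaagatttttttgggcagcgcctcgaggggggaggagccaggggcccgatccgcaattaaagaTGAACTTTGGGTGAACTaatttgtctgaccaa
Cyp26b1: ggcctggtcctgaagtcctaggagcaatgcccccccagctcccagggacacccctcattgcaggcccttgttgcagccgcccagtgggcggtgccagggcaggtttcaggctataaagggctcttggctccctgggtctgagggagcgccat

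The half-site was searched on both strands in 4 forms, first AGGTCA, then AGTTCA, further GGGTCA, with GGTTCA as the last of them. In 32851 promoter windows, each from 250 bases before to 50 bases after a start site, 43.7% held at least 1 half-site and 0.0974% held a direct repeat with 5 bases between. The 10 windows matched to 7 of the genes included 2 with a half-site, those of Aldh1a1 and Cyp26a1, and 1 with the repeat, that of Cyp26a1, which reads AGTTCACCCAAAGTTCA and lies 32 to 16 bases before the start. A direct repeat with 2 bases between (0.268% of windows) and CAAGGTCA, a form of the Nr5a1 motif that contains the first half-site (1.56% of windows), were found in none of the 10. Rdh10, Aldh1a3 and Crabp2 were not matched. A match is a description of letters in these windows, and the absence of one says only that the letters are not there.

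No gene of the 8 tested was called between cKO and control, where called means an edgeR quasi-likelihood adjusted p (FDR, Benjamini-Hochberg over 15577 genes) under 0.05. Over all genes 6 were called, 0.0385%. DESeq2 also called none of the 8, against 0.779% of the genes it tested, and limma-voom called none. At an unadjusted edgeR p under 0.05 there was 1 of 8, Dhrs3, against 11.4% of all genes. In none of the 8 were the groups separate in CPM, which held for 15.6% of all genes. The median log2 fold change of the 8 was 0.03, with 5 above 0 and 3 below, beside −0.0034 over all genes. The smallest p that an exact permutation test of 3 against 3 can give is 0.1.

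**Figure D2:**
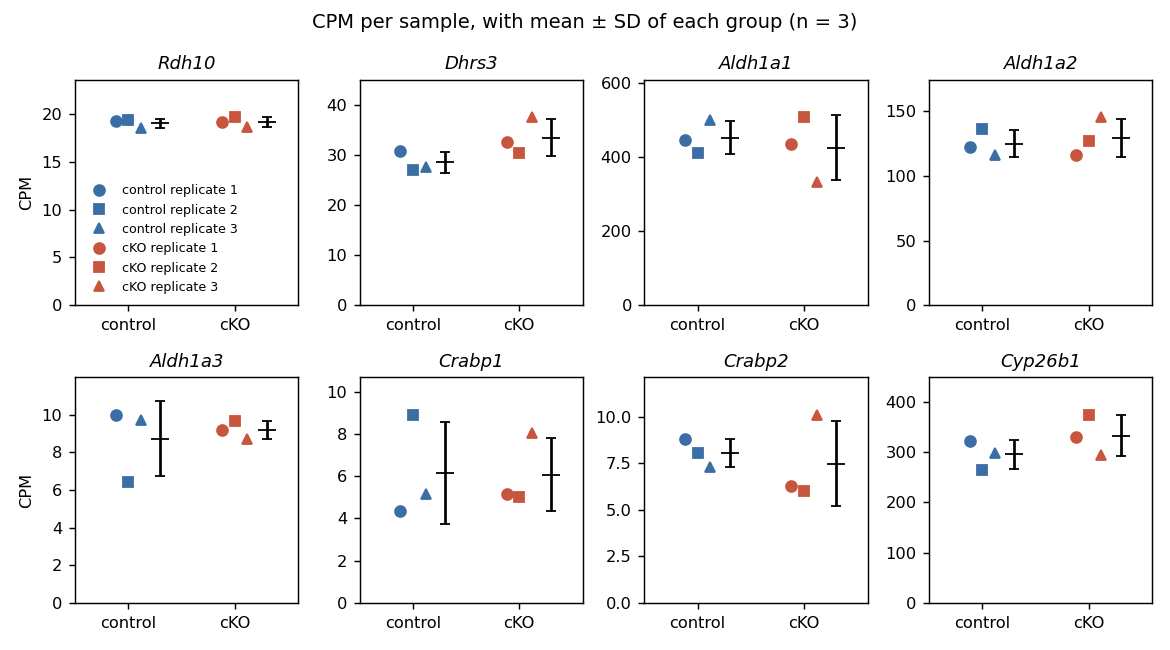
CPM of the 8 tested genes in each sample, with the group mean ± SD (n = 3) as black bars, each axis starting at 0. Control and cKO samples overlap in every panel, and Rdh10 has the tightest spread of the 8.

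Rdh10 and Dhrs3 act in opposite directions on the first step: Rdh10 oxidises retinol to retinal, and Dhrs3 reduces retinal back to retinol. Rdh10 (chr1:16105882-16132550) was at 19.2, 19.4 and 18.5 CPM in control replicates 1, 2 and 3 and at 19.1, 19.6 and 18.7 CPM in cKO replicates 1, 2 and 3. The samples of both groups lay interleaved. The log2 fold change was 0.0088 (SE 0.0740, 95% confidence interval −0.16 to 0.18, edgeR FDR = 0.977). Its coefficient of variation, 2.46% in controls and 2.53% in cKO, was below the 4.36% and 3.80% that counting error alone gives at these depths.

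Dhrs3 (chr4:144892827-144927645) was at 31.0, 27.1 and 27.7 CPM in controls and at 32.6, 30.4 and 37.6 CPM in cKO. The groups overlapped only through control replicate 1, which was above cKO replicate 2, and cKO replicate 3 was the highest. The means were 28.6 ± 2.08 and 33.6 ± 3.69 CPM (SD, n = 3 each), 17.4% higher in cKO. Between the groups the log2 fold change was 0.24 (SE 0.0925, 95% confidence interval 0.028 to 0.44, edgeR unadjusted p = 0.0302, FDR = 0.402), and over the alternative analyses its FDR ranged from 0.291 to 0.777. Without cKO replicate 3 the log2 fold change was 0.15 (edgeR unadjusted p = 0.144). The exact two-sided permutation test gave p = 0.2. The per-kilobase ratio of Dhrs3 to Rdh10 was 2.39, 2.07 and 2.22 in controls and 2.53, 2.30 and 2.99 in cKO, again with an overlap.

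The Aldh1a enzymes carry out the irreversible step from retinal to retinoic acid. Aldh1a1 (chr19:20601982-20643462) was at 447, 411 and 501 CPM in controls and at 435, 508 and 334 CPM in cKO. The lowest and the highest of all samples were both cKO, replicates 3 and 2. As a log2 fold change cKO differed by −0.09 (SE 0.134, 95% confidence interval −0.39 to 0.21, edgeR FDR = 0.832), and it was 0.058 without cKO replicate 3. The coefficient of variation in cKO, 20.5%, compared with 0.822% from counting error, so depth was not what limited this comparison. In that library, cKO replicate 3, the fetal Leydig marker sum was also the lowest of the 6 (162 CPM), and its part in the Aldh1a1 value was not tested.

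Aldh1a2 (chr9:71215789-71296243) was at 122, 137 and 116 CPM in controls and at 116, 127 and 145 CPM in cKO. Here cKO replicate 3 was the highest sample, the reverse of its place for Aldh1a1. edgeR gave a log2 fold change of 0.048 (SE 0.0894, 95% confidence interval −0.15 to 0.25, edgeR FDR = 0.872), and −0.043 without cKO replicate 3. The 7 mesonephros markers, of which 4 were tested, summed to 21.1 to 27.6 CPM in controls and 18.1 to 28.0 CPM in cKO, and cKO replicate 3 had the highest sum. Of the 4, Pax2 (log2 fold change 0.78, edgeR FDR = 0.390) and Pax8 (0.52, edgeR FDR = 0.377) were higher in every cKO sample than in every control. Over all genes 15.6% had separate groups, in either direction. Gata3 was at 0.51 and Lhx1 at −0.78 with overlapping groups, and none of the 4 was called by edgeR or DESeq2. Their part in the Aldh1a2 values was not tested.

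Aldh1a3 (chr7:66390892-66427477) was at 9.97, 6.43 and 9.74 CPM in controls and at 9.20, 9.65 and 8.68 CPM in cKO. Control replicate 2 was the lowest and the other samples lay close together. Fitted over all 6 samples, the log2 fold change was 0.088 (SE 0.169, 95% confidence interval −0.29 to 0.47, edgeR FDR = 0.877), and −0.11 without control replicate 2.

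Within the Aldh1a family, Aldh1a1 made up 79.3%, 76.3% and 81.8% of the summed RPKM in controls and 79.7%, 80.8% and 70.9% in cKO. Aldh1a2 made up 19.6%, 23.0% and 17.2% in controls and 19.3%, 18.3% and 28.0% in cKO. In 5 samples the Aldh1a1 share thus lay between 76.3% and 81.8%, and cKO replicate 3 had the lowest Aldh1a1 and the highest Aldh1a2 share. Aldh1a3 contributed 0.711% to 1.10%.

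The binding proteins hold retinoic acid in the cytoplasm, Crabp2 also delivering it to nuclear receptors. Crabp1 (chr9:54764748-54773110) was at 4.37, 8.89 and 5.15 CPM in controls and at 5.14, 5.03 and 8.05 CPM in cKO. One sample of each group, control replicate 2 and cKO replicate 3, lay above the other 4. The log2 fold change was −0.043 (SE 0.279, 95% confidence interval −0.67 to 0.58, edgeR FDR = 0.970), the widest interval of the 8 genes. It moved to −0.30 without cKO replicate 3 and to 0.33 without control replicate 2. The coefficient of variation in controls was 39.4%, against 8.44% from counting error.

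Crabp2 (chr3:87948693-87953372) was at 8.80, 8.03 and 7.30 CPM in controls and at 6.31, 6.01 and 10.1 CPM in cKO. In cKO, replicates 1 and 2 lay below all controls and replicate 3 above them. Between the groups the log2 fold change was −0.10 (SE 0.201, 95% confidence interval −0.56 to 0.35, edgeR FDR = 0.880). Without cKO replicate 3 it was −0.38 (edgeR unadjusted p = 0.0296, FDR = 0.633), at a background of 7.83% of genes with an unadjusted p under 0.05 in that fit. Its coefficient of variation was 9.38% in controls and 30.6% in cKO, and Crabp1 made up 36.6% to 56.2% of the Crabp sum.

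Cyp26b1 degrades retinoic acid and is the enzyme that keeps it from male germ cells at this stage. It was at 322, 264 and 298 CPM in control replicates 1, 2 and 3 and at 331, 373 and 294 CPM in cKO replicates 1, 2 and 3. The cKO replicates 1 and 2 were above all controls, and cKO replicate 3 lay among them. The means were 295 ± 29.1 CPM and 332 ± 39.9 CPM (SD, n = 3 each), 12.7% higher in cKO. As a log2 fold change cKO differed by 0.17 (SE 0.0962, 95% confidence interval −0.042 to 0.39, edgeR FDR = 0.515), and the exact two-sided permutation test gave p = 0.3. Without cKO replicate 3 it was 0.26 (edgeR unadjusted p = 0.0200, FDR = 0.633). In that fit 7.83% of genes had an unadjusted p under 0.05. Over the alternative analyses the FDR of Cyp26b1 ranged from 0.367 to 0.856. The sum of the 10 Sertoli markers ran in nearly the same order of samples, at 2725, 2214 and 2314 CPM in controls and at 2386, 2779 and 2241 CPM in cKO, and its part in the Cyp26b1 values was not tested. As a fold, the interval for Cyp26b1 ran from 0.971 to 1.31.

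**Figure D3:**
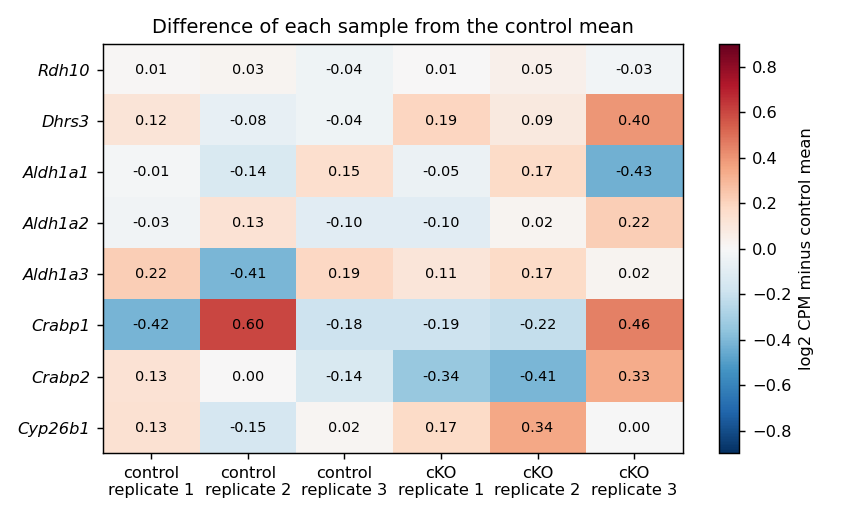
Difference of each sample from the control mean on the log2 CPM scale for the 8 tested genes, red above and blue below. Aldh1a1 is 0.43 below the control mean in cKO replicate 3, where Dhrs3 is 0.40 and Crabp1 0.46 above it.

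The highest and lowest samples fell unevenly over the libraries. Of the 8 tested genes, cKO replicate 3 was the highest sample for 3 (Dhrs3, Aldh1a2 and Crabp2) and the lowest for 1 (Aldh1a1). Control replicate 2 was the lowest for 3 (Dhrs3, Aldh1a3 and Cyp26b1) and the highest for 1 (Crabp1). As often an extreme, cKO replicate 2 was the highest for 3 (Rdh10, Aldh1a1 and Cyp26b1) and the lowest for 1 (Crabp2). Rdh10 lay between −0.04 and 0.05 of the control mean in every sample on the log2 CPM scale.

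Transcripts of the degrading and synthesising enzymes were compared as the log2 ratio of the summed Cyp26 RPKM to the summed Aldh1a RPKM. It was −1.87, −2.08 and −2.10 in control replicates 1, 2 and 3 and −1.78, −1.81 and −1.74 in cKO replicates 1, 2 and 3. Every cKO sample lay above every control. No single gene of the 8 separated the groups in CPM, while 15.6% of all genes did, in either direction. That share is of single genes, and none was worked out for ratios of summed genes. As linear ratios the values were 0.274, 0.236 and 0.234 in controls and 0.291, 0.285 and 0.299 in cKO, with means of 0.248 ± 0.0230 and 0.292 ± 0.00700 (SD, n = 3 each). The ratio was chosen with results of these data known and was not tested. In cKO replicates 1 and 2 Cyp26b1 was above all controls, whereas in cKO replicate 3 Cyp26b1 lay among the controls and Aldh1a1 was the lowest of all samples. The log2 ratio of Cyp26b1 to Aldh1a1 alone was −1.53, −1.70 and −1.81 in controls and −1.46, −1.50 and −1.25 in cKO. That of Cyp26b1 to Aldh1a2 overlapped, at 0.49, 0.04 and 0.44 in controls and 0.59, 0.64 and 0.10 in cKO.

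**Figure D4:**
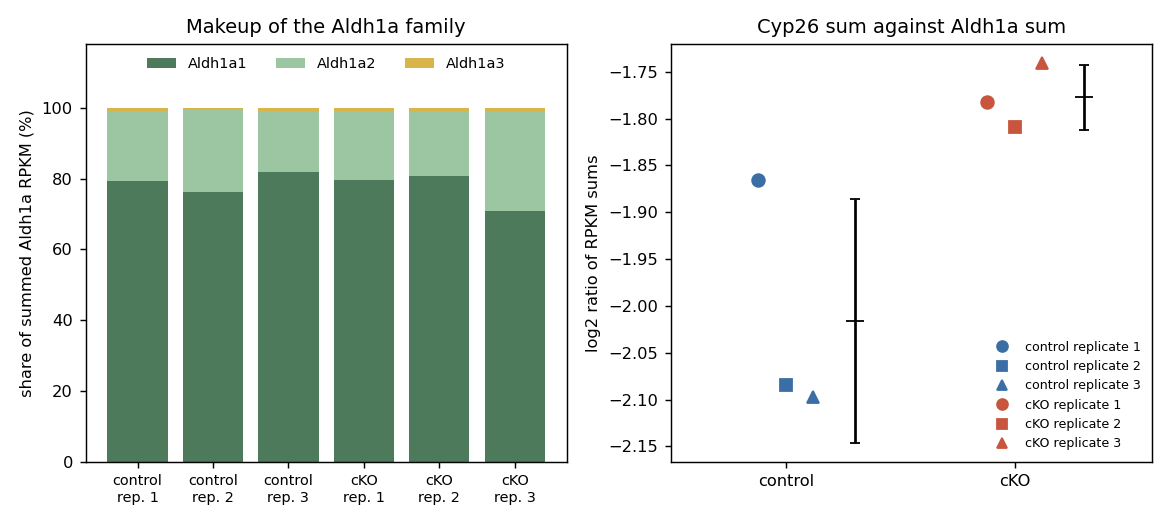
Left, share of each enzyme in the summed RPKM of the Aldh1a family, per sample. Right, log2 ratio of the Cyp26 sum to the Aldh1a sum per sample, with mean ± SD (n = 3) as black bars on an axis that does not start at 0. The cKO samples lie between −1.81 and −1.74 and the controls between −2.10 and −1.87.

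The other genes of the pathway were taken as 46 genes in 6 lists, of which 37 were tested. edgeR called 1, Nr5a1, and 7 had an unadjusted p under 0.05, 6 higher and 1 lower in cKO, at backgrounds of 5.56% and 5.8% of all genes in those directions. DESeq2 also called 1. The median log2 fold change of the 37 was 0.02. The groups were separate in CPM in 5 of the 37, beside 15.6% of all genes.

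Among genes of retinol uptake, storage and carriage, 5 of 7 were tested and none was called. Stra6l, a relative of the retinol transporter Stra6, was at 1.66, 2.26 and 2.78 CPM in controls and at 1.02, 1.001 and 0.998 CPM in cKO. Every cKO sample was below every control. edgeR gave a log2 fold change of −1.17 (edgeR FDR = 0.377, SE 0.245), and its adjusted p over the alternative analyses ranged from 0.0548 with DESeq2 to 0.777. Stra6, which takes retinol into cells and is named here after its values were seen, was at 17.2, 15.4 and 17.3 CPM in controls and 17.8, 19.2 and 21.1 CPM in cKO (log2 fold change 0.22, edgeR FDR = 0.423, SE 0.0937). Without cKO replicate 3 the log2 fold change of Stra6 was 0.16 (edgeR unadjusted p = 0.171).

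None of the 12 tested genes among the 17 other retinol, retinal and carotenoid enzymes was called, and none had an unadjusted edgeR p under 0.05. Their median log2 fold change was −0.08. The lowest p belonged to Dhrs4, a retinal reductase, with a log2 fold change of −0.09 (edgeR FDR = 0.674, SE 0.0763). The cofactors of the retinoic acid receptors, all 6 tested, gave no call either and no unadjusted p under 0.05, Ncoa3, a coactivator, being the lowest in p (log2 fold change −0.14, edgeR FDR = 0.485, SE 0.0734).

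All 7 genes of the receptor list were tested, and none was called. Rarb, a receptor whose own transcription is classically induced by retinoic acid, was at 2.89, 4.05 and 3.29 CPM in controls and at 4.34, 4.92 and 5.17 CPM in cKO. The groups did not overlap, as in 15.6% of all genes. Fitted over all 6 samples, the log2 fold change was 0.48 (edgeR unadjusted p = 0.0225, FDR = 0.385, SE 0.175). It was 0.42 without cKO replicate 3 (edgeR unadjusted p = 0.0609) and 0.28 with thinned libraries (edgeR unadjusted p = 0.242). Rara, named after its values were seen, was at 76.9, 75.3 and 79.1 CPM in controls and 80.9, 88.3 and 87.4 CPM in cKO (log2 fold change 0.15, edgeR FDR = 0.404, SE 0.0596).

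Of the 5 genes listed as responsive to retinoic acid, 3 were tested and none was called. Stra8, which marks the entry of germ cells into meiosis, had 2, 5 and 0 counts in controls and 3, 0 and 0 counts in cKO and was not tested. Rec8, a meiotic cohesin, was at 7.26, 5.48 and 5.002 CPM in controls and at 3.72, 3.11 and 12.49 CPM in cKO. In cKO, replicates 1 and 2 lay below all controls and replicate 3 above them. The log2 fold change was 0.13 (edgeR FDR = 0.932, SE 0.460), and −0.77 without cKO replicate 3 (edgeR FDR = 0.633). The 10 germ cell markers summed to 465 to 779 CPM in controls and 225 to 490 CPM in cKO, with 362 CPM in cKO replicate 3. Of the 10, 8 were lower at an unadjusted edgeR p under 0.05, against 5.8% of all genes. edgeR called none of the 10, and DESeq2 called Mael (adjusted p = 0.0135) and Dnd1 (adjusted p = 0.0429). Their part in the Rec8 values was not tested.

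Among 4 genes known to regulate Cyp26b1 in the gonad, Nr5a1 rose in cKO. Nr5a1 (chr2:38692656-38714542), a nuclear receptor that with Sox9 activates Cyp26b1, was at 372, 360 and 311 CPM in controls and at 512, 593 and 546 CPM in cKO. The groups were well separated. Between the groups the log2 fold change was 0.66 (edgeR FDR = 0.0401, SE 0.0801, DESeq2 adjusted p = 4.98e-12), with adjusted p over the alternative analyses up to 0.267. The edgeR call was lost without any 1 of control replicates 1, 2 and 3 and cKO replicates 2 and 3 (FDR 0.0731, 0.186, 0.212, 0.0879 and 0.132), with the log2 fold change between 0.58 and 0.72. The Sf1-Cre transgene, present only in cKO, was built on Nr5a1 sequences, and reads from it cannot be told apart here from those of the gene. Sox9, the Sertoli cell determinant, was at 184, 157 and 155 CPM in controls and 213, 213 and 175 CPM in cKO (log2 fold change 0.28, edgeR FDR = 0.377, SE 0.0919). Foxl2, which represses Cyp26b1 and is named after its values were seen, was at 0.431, 0.702 and 0.805 CPM in controls and 0.773, 1.22 and 7.56 CPM in cKO, a log2 fold change of 2.21 (edgeR FDR = 0.382, SE 0.790) that was 0.55 without cKO replicate 3.

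**Figure D5:**
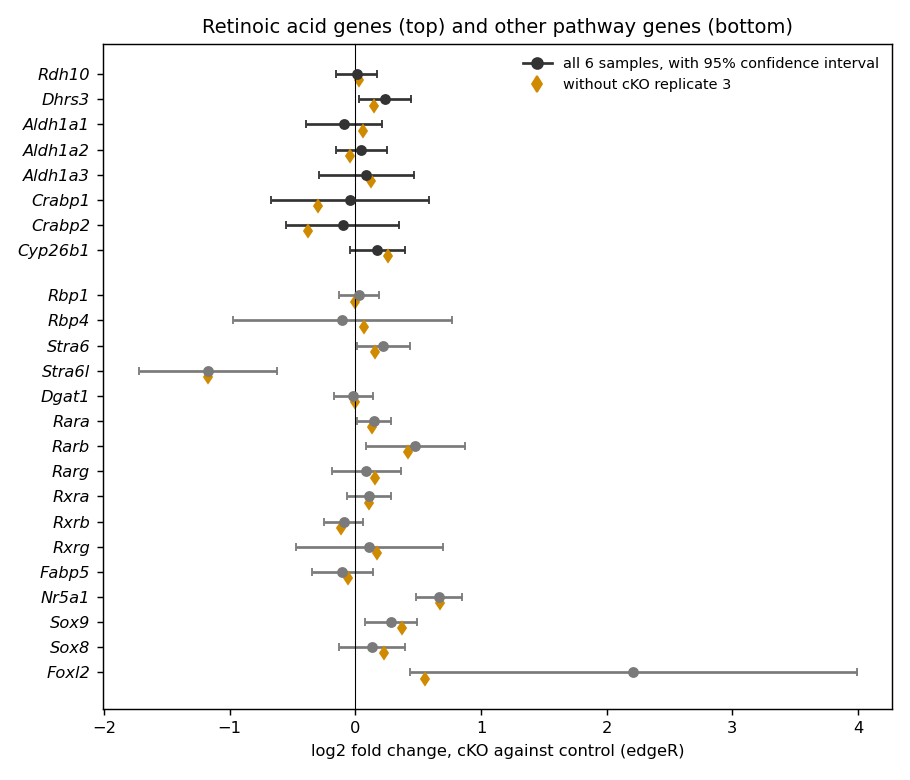
Log2 fold change of cKO against control with its 95% confidence interval (edgeR, all 6 samples, circles) and without cKO replicate 3 (orange diamonds), for the 8 tested genes above and the tested uptake, receptor and regulator genes below. Of the 8, Dhrs3 is the one whose interval lies clear of 0, and Foxl2 moves most when cKO replicate 3 is left out, from 2.21 to 0.55.

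The genes most like Cyp26b1, Aldh1a2 and Crabp1 in pattern were found by Pearson's r of log2 CPM over the 6 samples, given as a description, since all 15577 genes share the same 6 libraries. For Cyp26b1 they were Slc27a6, a fatty acid transport protein (r = 0.996), Paqr8 (r = 0.993) and Prokr2 (r = 0.993), with 182 genes above 0.9. For Aldh1a2 they were Fbxl4 (r = 0.992), Fam110b (r = 0.986) and Gm5643 (r = 0.970), with 91 genes above 0.9. For Crabp1 they included Mmachc (r = 0.986) and Nbdy (r = 0.985), with 99 genes above 0.9.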

How the data were processed

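RNA was sequenced from 6 pools of whole E12.5 testes, 3 control and 3 cKO. The deposited table holds unnormalized counts per gene: the authors made stranded mRNA libraries, aligned paired reads to mm10 with STAR (2.5) and counted RefSeq genes strand-specifically with featureCounts (Subread 1.5.0-p1). Groups and replicate numbers came from the sample titles. P-values measure the spread between these pools.

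Genes were filtered with filterByExpr (minimum count 10), TMM-scaled, and tested for cKO against control with the quasi-likelihood F-test of edgeR 4.0.16 in R 4.3.3, adjusted over all genes, on simulated data first. CPM used TMM-scaled totals, and log2 CPM a prior count of 2. RPKM used exon lengths from the reference annotation. Intervals are at 95%, and floors cover counting error only. Alternatives were DESeq2 1.42.0, limma-voom (limma 3.58.1), DESeq2-type size factors, other filters, thinned libraries, a replicate block and leaving out each replicate.

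Members, lists and tests were chosen with earlier results of these data known. The text names all 10 genes, called pathway genes, the lowest p of each list, and Rarb, Stra8, Rec8, Nr5a1 and Sox9, and for likeness the 3 genes of highest r. Some results that this rule would name are not reported here. In the 10 marker lists edgeR made no call and DESeq2 called 2 genes, Mael and Dnd1.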

Additional observations from a re-analysis of the deposited data

How the results depend on the processing

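No gene of the 8 was called under any of 13 alternatives, the lowest FDR being 0.291, and the direction held in 90 of 104 values. Dhrs3 (0.15 to 0.30 on the log2 scale when 1 replicate was left out) and Cyp26b1 (0.083 to 0.26) kept theirs. Leaving out 1 replicate gave −0.018 to 0.026 for Rdh10, −0.24 to 0.058 for Aldh1a1, −0.043 to 0.12 for Aldh1a2, −0.11 to 0.19 for Aldh1a3, −0.30 to 0.33 for Crabp1, −0.38 to 0.032 for Crabp2, −0.77 to 0.47 for Rec8 and −0.11 to 0.030 for Tgm2. The number of the 8 at an unadjusted edgeR p under 0.05 then ranged from 0 to 2, and the number of pathway genes called from 0 to 1. The 2 were Dhrs3 and Cyp26b1 without control replicate 1, and Crabp2 and Cyp26b1 without cKO replicate 3. In the fit without cKO replicate 3, 7.83% of all genes had such a p. For the fit without control replicate 1 that share was not worked out. Thinning the libraries gave −0.062 for Rdh10 and 0.084 for Crabp1, and limma-voom −0.13 for Rec8. The stricter filter left 0 pathway genes called (Nr5a1 0.67, FDR = 0.0503). Whether the replicate numbers pair the samples is not stated. In deviations from their group means, same-numbered samples correlated at −0.20, −0.27 and −0.13, which with 3 samples per group cannot settle it. The fit with a replicate block gave 0 of the 8 at an unadjusted p under 0.05 and 0 pathway genes called (Nr5a1 0.67, FDR = 0.267). It gave 0.011 for Crabp1 and −0.14 for Rec8. From counts not divided by length, the log2 ratio of the Cyp26 to the Aldh1a sum was −0.996 in controls and −0.76 in cKO, with the cKO again higher, and Cyp26b1 made up 99.96% of the Cyp26 sum in cKO, a shift that follows from the different exon lengths. The causes of the other shifts were not tested. With 3 samples per group, intervals reached 0.58 on the log2 scale for Crabp1, and depth left Cyp26a1 and Cyp26c1 untested.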

Other observations

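Further listed genes had a large share of their counts in 1 library, and they are named after their values were seen. Dhrs9, a retinol dehydrogenase, had 44 counts (1.10 CPM) in cKO replicate 1, 91.7% of its counts in all 6 libraries, against 0 to 2 in each of the others. Adh7, an alcohol dehydrogenase that oxidises retinol, was at 1.35 CPM in the same library (54 counts, 45.8% of its counts) and at 0.195 to 0.677 CPM in the other 5. In cKO replicate 1 the mesothelial gene Msln was at 8.28 CPM, against 0.111 to 0.521 CPM in the other 5. The surface epithelium markers, Msln among them, summed to 131 CPM in that library. Their sums ran from 122 to 138 CPM in controls and from 129 to 147 CPM in cKO. Adh7 was not called by edgeR (FDR = 0.805), and Dhrs9 and Msln did not pass the filter on low counts and were not tested.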
